A study of Rattus norvegicus with 10 samples.

Results

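The 10 genes described here mark macrophages and monocytes: C1qa, C1qb, C1qc, Cd163, Mrc1, Csf1r, Aif1, Ctss, Cd68 and Trem2. Every probe set annotated with 1 gene symbol from this list was taken, which gave 12 of the 31042 probe sets tested, for 10 of 14217 genes. The samples were white adipose tissue from 10 male rats aged 13 weeks, each on its own expression array. The 5 rats of the noodle group (animals 1, 4, 7, 10 and 13) received a diet with 30 wt% instant noodle, in which 26% of the energy came from fat. The 5 rats of the control group (animals 2, 5, 8, 11 and 14) received that diet with the seasonings left out, so both groups ate the medium-fat base diet. Feeding lasted 30 days by one label and 4 weeks by another, with paired feeding of roughly 60 g per kg of body weight a day. The strain and the fat depot are not given in the labels.

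Macrophages of adipose tissue fall broadly into cells that settle in the tissue and cells that gather round lipid-filled or dying adipocytes. Resident cells carry scavenger and lectin receptors such as Cd163 and Mrc1 and secrete C1q, the recognition protein of the classical complement pathway. Lipid-associated macrophages, described in obese mice and humans, depend on Trem2, a surface receptor for lipids and lipoproteins that signals through the adaptor Tyrobp. Csf1r, the receptor for the growth factors Csf1 and Il34, keeps most tissue macrophages alive. The question followed here is how the resident markers and Trem2 varied over the 10 animals, and how the noodle and control groups differed in them.

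The deposited values were taken as log2, so that a difference of 1 is a 2-fold difference on the deposited scale. A probe set was named flat where its SD over the 10 arrays was 0.01 or less, and 28435 of the 31042 probe sets were flat. Of the 12 member probe sets 11 were not flat, and each of the 10 genes had at least 1 of these. The flat one was a second probe set of Aif1, at 6.09 with an SD of 0.0004. Brightness depends on the probes, so levels are not compared between genes. In whole tissue, fewer cells of a type and less RNA per cell cannot be told apart.

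The marker lists show which listed genes had values that varied, and levels of different probe sets do not identify a tissue. A flat probe set does not mean an absent gene or cell type. Bright probe sets were flat too, such as those of Selenop at 12.20 and Lgals1 at 12.39. Over all probe sets 8.40% were not flat. Counted by gene, as the lists are, 1622 genes besides the members were not flat, of 14217 genes in all. In the adipocyte list 7 of 14 measured genes were not flat. In a list of brain and microglial genes, measured because the extraction text speaks of a brain sample, 2 of 11 were not flat, the myelin gene Mbp at a mean of 8.76 and P2ry12, a receptor of microglia, at 6.78. No member of the T and NK cell list (13 measured) or of the B and plasma cell list (6 measured) varied beyond 0.01.

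The promoter windows of 3 resident markers and of Trem2 are shown because values of the resident markers moved together over the animals while those of Trem2 did not move with them. Each window runs from 250 bases before to 50 bases after the RefSeq start of the gene on the rat assembly GRCr8, 5′ to 3′ on the gene's strand. Capitals mark GAGGAA on either strand, the core bound by PU.1 (Spi1), a transcription factor of macrophage development.
C1qa (chr5:154419884-154420183, minus strand): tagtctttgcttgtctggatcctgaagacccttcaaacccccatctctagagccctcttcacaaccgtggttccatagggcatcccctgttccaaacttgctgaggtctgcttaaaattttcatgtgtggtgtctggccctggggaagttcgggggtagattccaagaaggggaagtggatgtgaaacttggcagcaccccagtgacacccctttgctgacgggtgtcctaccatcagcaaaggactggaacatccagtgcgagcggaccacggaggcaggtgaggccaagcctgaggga
C1qb (chr5:154407778-154408077, minus strand): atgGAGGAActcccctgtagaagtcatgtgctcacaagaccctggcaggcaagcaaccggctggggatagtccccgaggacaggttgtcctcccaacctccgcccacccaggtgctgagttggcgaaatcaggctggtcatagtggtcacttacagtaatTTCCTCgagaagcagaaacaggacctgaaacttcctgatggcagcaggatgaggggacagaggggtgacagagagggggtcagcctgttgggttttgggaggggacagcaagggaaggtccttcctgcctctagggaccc
Mrc1 (chr17:82157475-82157774, plus strand): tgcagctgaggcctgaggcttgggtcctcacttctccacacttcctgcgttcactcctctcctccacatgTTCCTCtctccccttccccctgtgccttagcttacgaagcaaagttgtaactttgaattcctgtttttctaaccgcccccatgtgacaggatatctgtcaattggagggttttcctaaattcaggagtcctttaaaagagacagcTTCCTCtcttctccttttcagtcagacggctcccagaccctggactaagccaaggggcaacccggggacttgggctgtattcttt
Trem2 (chr9:20151730-20152029, minus strand): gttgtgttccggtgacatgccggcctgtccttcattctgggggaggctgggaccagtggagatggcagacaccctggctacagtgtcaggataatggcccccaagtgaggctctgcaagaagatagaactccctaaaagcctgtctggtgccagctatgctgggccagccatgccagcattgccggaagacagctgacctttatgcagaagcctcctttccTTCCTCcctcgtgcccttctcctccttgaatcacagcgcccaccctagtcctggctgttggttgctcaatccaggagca

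Windows were at hand for 8 of the 10 members, and C1qc and Aif1 are named only. GAGGAA was found in 6 of the 8 windows, those of C1qb, Mrc1, Trem2, Ctss, Cd68 and Csf1r, against 27.6% of 33469 rat windows of the same length. The letters were not in the windows of C1qa and Cd163. The site TTGCNNAA, bound by C/EBP factors, was found in 1 of the 8 windows, that of Trem2, against 10.6% of all windows. TGCTGAC, a partial site of MAF factors, was found in that of C1qa alone, against 4.44%. The E-box CACGTG was in none of the 8, against 6.42%. All motifs were searched on both strands, no matches overlapped, and a match describes letters in the window only. In the RefSeq order, C1qb, C1qc and C1qa are neighbouring coding genes on chromosome 5.

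The comparison of diets was made across all probe sets with limma. None of the 31042 probe sets had an adjusted p under 0.05 (0%), and 0.409 was the lowest adjusted p in the table. Without adjustment, 1481 had p under 0.05 (4.77%), and among the 2607 that were not flat there were 212 (8.13%), of which 73 were higher and 139 lower in the noodle group. No member passed the adjusted threshold, with adjusted p = 0.993 by limma for each of the 11 member probe sets that were not flat. At an unadjusted p under 0.05 there was 1 of these 11, the second probe set of Trem2. Means of 9 of the 10 genes were higher in the noodle group, where 44.6% of all probe sets that were not flat were higher. Values of the 9 rose and fell together over the animals, so they are not independent evidence. With a measure of RNA quality as a covariate, given further down, 6 of the 10 were higher. The median difference over the 10 genes was 0.17, against -0.01 over the probe sets that were not flat. No member probe set had groups that did not overlap, which 0.959% of the probe sets that were not flat had.

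**Figure D1:**
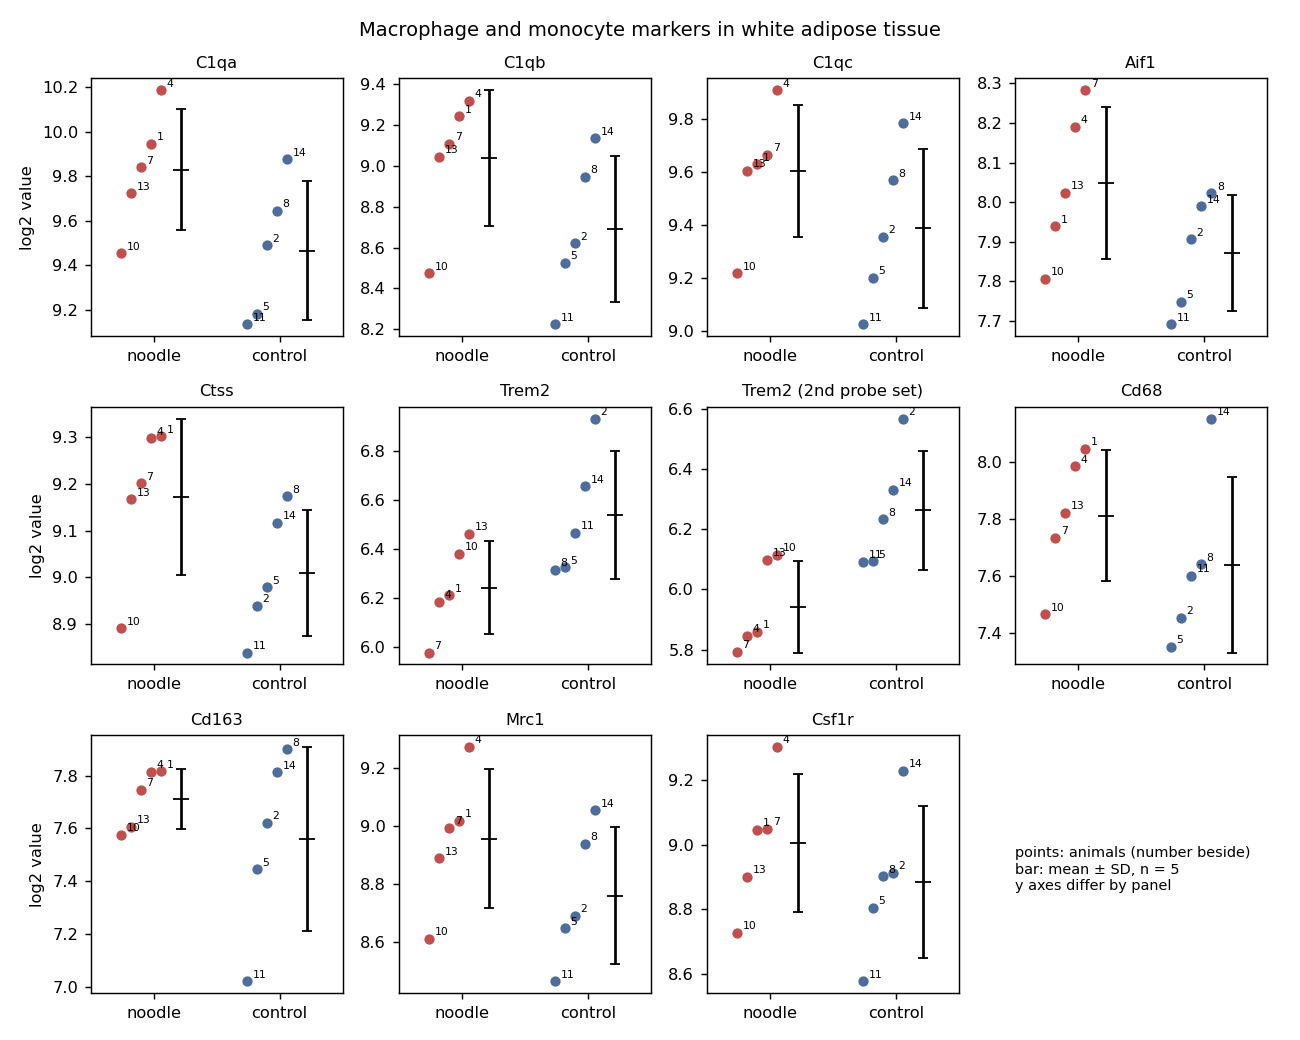
Deposited log2 value (y axis, which differs by panel) of the 11 member probe sets that are not flat, noodle animals left and control animals right, 1 numbered point per animal, with bars for the group mean ± SD. In each panel the groups overlap. Noodle animal 4 is at the top and control animal 11 at the bottom for C1qa, C1qb, C1qc and Mrc1, and neither is for Trem2.

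C1qa, C1qb and C1qc encode the 3 chains of C1q. In noodle animals 1, 4, 7, 10 and 13, C1qa stood at 9.94, 10.19, 9.84, 9.45 and 9.72, against 9.49, 9.18, 9.64, 9.13 and 9.88 in control animals 2, 5, 8, 11 and 14. Noodle animals 1 and 4 lay above every control animal, while noodle animal 10 lay below 3 of the 5. Noodle animals averaged 9.83 ± 0.27 and control animals 9.46 ± 0.31 (SD, n = 5 each). The difference of 0.36 ± 0.18 (SE) had a 95% interval from -0.04 to 0.77 and p = 0.0873 in the two-sided exact permutation test, whose smallest possible p is 0.0079.

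C1qb, in the same order of animals, stood at 9.24, 9.32, 9.11, 8.47 and 9.05 in the noodle group, against 8.62, 8.53, 8.95, 8.22 and 9.13 in the control group. Noodle animals 1 and 4 were again above every control animal, and the highest control animal, 14, was above noodle animals 7, 10 and 13. The difference was 0.35 ± 0.21 (SE; 95% interval -0.13 to 0.83; exact permutation p = 0.143). Leaving out control animal 11 gave 0.23, which had the lowest C1qb.

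C1qc stood at 9.63, 9.91, 9.66, 9.22 and 9.60 in the noodle group, against 9.36, 9.20, 9.57, 9.03 and 9.78 in the control group. Only noodle animal 4 was above every control animal. The difference of 0.22 ± 0.17 (SE; 95% interval -0.17 to 0.60; exact permutation p = 0.238) became 0.14 on leaving out noodle animal 4 and 0.13 on leaving out control animal 11.

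Mrc1, the macrophage mannose receptor, stood at 9.02, 9.27, 8.996, 8.61 and 8.89 in the noodle group, against 8.69, 8.65, 8.94, 8.47 and 9.05 in the control group. As for C1qc, noodle animal 4 was highest, control animal 14 next and control animal 11 lowest. The difference was 0.20 ± 0.15 (SE; exact permutation p = 0.254). It became 0.12 when noodle animal 4 was left out and when control animal 11 was. Cd163, the scavenger receptor for haemoglobin bound to haptoglobin, stood at 7.82, 7.82, 7.75, 7.58 and 7.61 in the noodle group, against 7.62, 7.44, 7.90, 7.02 and 7.81 in the control group. The highest animal, 8, and the lowest, 11, were both controls, and the control SD was 0.35 where the noodle SD was 0.11. The Cd163 difference of 0.15 ± 0.16 (SE; exact permutation p = 0.437) was 0.02 without control animal 11 and 0.24 without control animal 8.

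Of the markers not tied to a macrophage state, Aif1 encodes the calcium-binding protein IBA1 of the macrophage cytoskeleton. Aif1 stood at 7.94, 8.19, 8.28, 7.81 and 8.02 in the noodle group, against 7.91, 7.75, 8.02, 7.69 and 7.99 in the control group, with 3 noodle animals above every control animal, although animal 13 equalled control animal 8 at 2 decimals. The difference was 0.18 ± 0.10 (SE; exact permutation p = 0.127). Ctss, the lysosomal protease cathepsin S, also had 3 noodle animals above every control animal, and its difference was 0.16 ± 0.09 (SE; exact permutation p = 0.135). It lay between 8.89 and 9.30 in the noodle group and between 8.84 and 9.17 in the control group.

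Csf1r had a difference of 0.12 ± 0.14 (SE; exact permutation p = 0.444). It lay between 8.73 and 9.30 in the noodle group and between 8.58 and 9.23 in the control group, and the 2 highest animals were noodle animal 4 and control animal 14. The Csf1r difference became 0.05 on leaving out noodle animal 4, 0.04 for control animal 11, 0.19 for noodle animal 10 and 0.21 for control animal 14. Cd68, a glycoprotein of lysosomes, stood at 8.05, 7.98, 7.73, 7.47 and 7.82 in the noodle group, against 7.45, 7.35, 7.64, 7.60 and 8.15 in the control group. The highest of the 10 values was that of control animal 14, so no noodle animal was above every control animal. The Cd68 difference of 0.17 ± 0.17 (SE; exact permutation p = 0.333) became 0.11 on leaving out noodle animal 1, 0.10 for control animal 5, 0.26 for noodle animal 10 and 0.30 for control animal 14.

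Trem2 was the 1 member with a lower mean in the noodle group. It stood at 6.21, 6.18, 5.98, 6.38 and 6.46 in noodle animals 1, 4, 7, 10 and 13, against 6.93, 6.33, 6.32, 6.47 and 6.66 in control animals 2, 5, 8, 11 and 14. Noodle animals 1, 4 and 7 were below every control animal, and noodle animals 10 and 13 lay among the controls. The difference was -0.30 ± 0.14 (SE; 95% interval -0.61 to 0.02; exact permutation p = 0.0794), and -0.20 without control animal 2, the highest of the 10.

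The second probe set of Trem2 stood at 5.86, 5.85, 5.79, 6.11 and 6.10 in the noodle group, against 6.57, 6.09, 6.23, 6.09 and 6.33 in the control group. The same 3 noodle animals were below every control animal and control animal 2 was again the highest. Its difference was -0.32 ± 0.11 (SE; 95% interval -0.57 to -0.07; exact permutation p = 0.0476), and its adjusted p by limma over all probe sets was 0.993. Both probe sets read 1 gene, so they are not independent evidence. Their values had r = 0.93 over the 10 animals (rho 0.79; r = 0.90 after each diet's mean was removed). Values of Trem2 lay close to the array medians, which were 6.17 to 6.18.

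**Figure D2:**
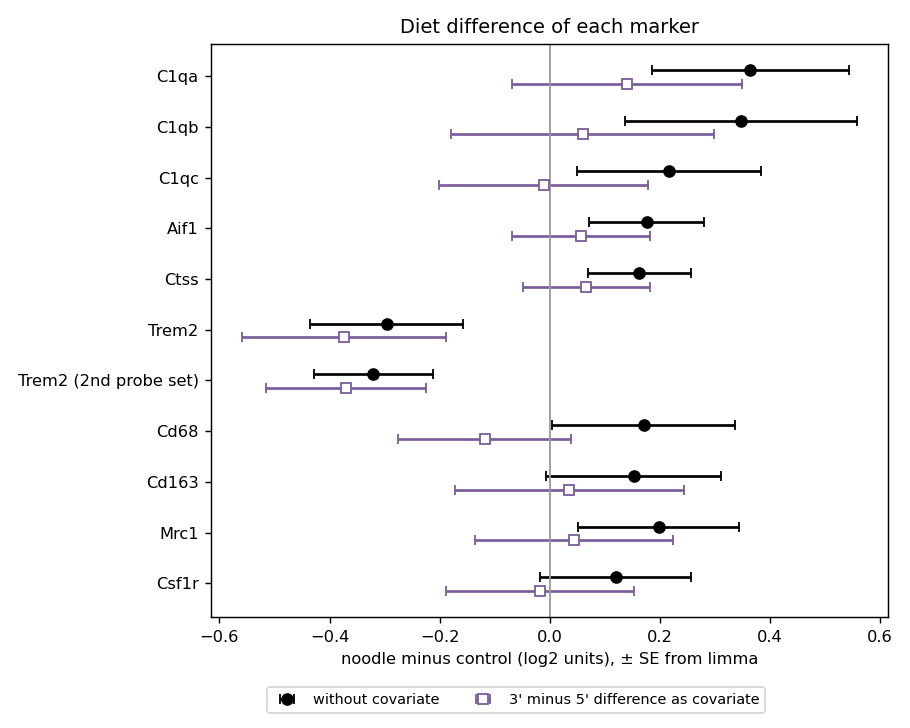
Difference between diets for the 11 member probe sets that are not flat (x axis, noodle minus control, log2), with bars of ± SE from limma. The same difference with the 3′ minus 5′ difference of the array as a covariate is drawn under each, also ± SE. Differences of the 9 genes other than Trem2 lie nearer 0 with the covariate, and those of both Trem2 probe sets do not.

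The 3′ minus 5′ difference, a measure of RNA quality, had a lower mean in the noodle group. The groups overlapped, with noodle animal 10 at 0.926 and control animal 14 at 0.823. The signal of the 3′ control probe sets of Actb and Gapdh minus that of the 5′ ones averaged 0.837 ± 0.0691 in the noodle group and 0.950 ± 0.0844 in the control group (SD, n = 5 each; exact permutation p = 0.0476). A smaller difference between the ends goes with more intact RNA. Over the 10 animals this measure had r from -0.74 for Cd68 to -0.42 for Cd163 with the 9 genes other than Trem2, and 0.23 and 0.35 with the probe sets of Trem2. No one of these 11 correlations passed Benjamini-Hochberg adjustment over the 11 (lowest adjusted p = 0.1 by permutation).

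With that measure as a covariate in the limma fit, 6 of the 10 genes instead of 9 were higher in the noodle group. The difference was 0.14 ± 0.21 for C1qa, 0.06 ± 0.24 for C1qb, 0.04 ± 0.18 for Mrc1, 0.04 ± 0.21 for Cd163, 0.06 ± 0.13 for Aif1 and 0.07 ± 0.12 for Ctss (SE). It was -0.01 ± 0.19 for C1qc, -0.12 ± 0.16 for Cd68 and -0.02 ± 0.17 for Csf1r. For Trem2 it was -0.37 ± 0.19, and -0.37 ± 0.15 for the second probe set. The part of RNA quality in the differences of the members was not tested beyond this fit.

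**Figure D3:**
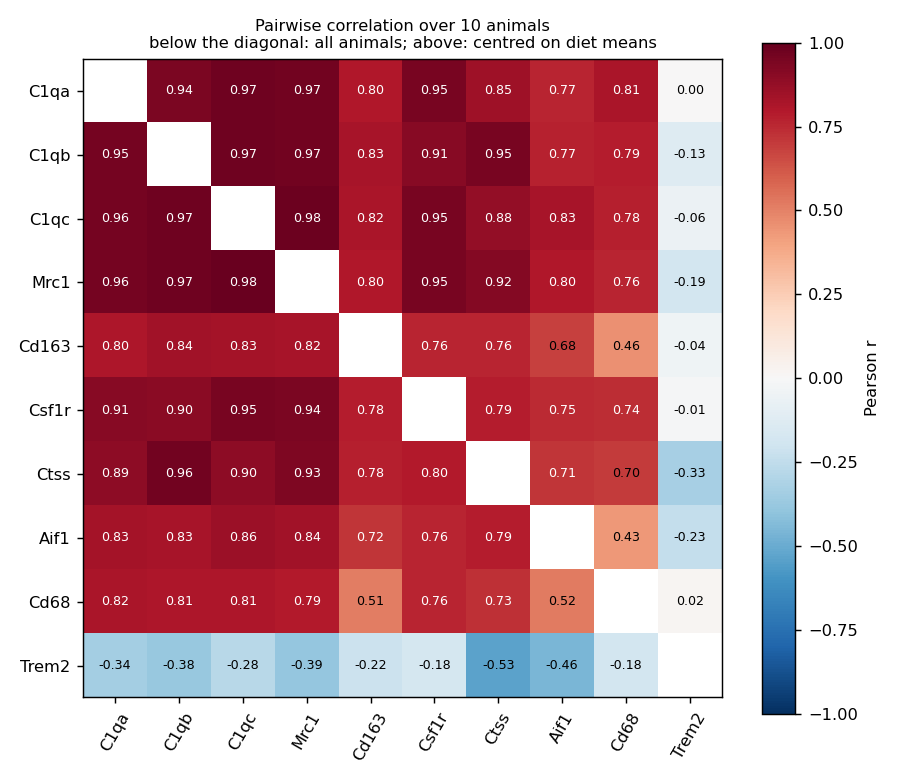
Pearson r of each pair of the 10 genes over the 10 animals, below the diagonal as measured and above it with each diet's mean removed. As measured, the 36 pairs without Trem2 lie between 0.51 and 0.98 and the 9 pairs with Trem2 between -0.53 and -0.18.

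Over the 10 animals the markers other than Trem2 rose and fell together. Their 36 pairs had r from 0.51 to 0.98 with a median of 0.83, and 34 of them passed Benjamini-Hochberg adjustment over all 45 pairs in the permutation test. The pairs that did not pass were Aif1 with Cd68 (r = 0.52) and Cd68 with Cd163 (r = 0.51). By rank, 32 of the 36 passed. The share of pairs that would pass among all genes that were not flat was not computed. The 3 pairs of C1q chains had r = 0.95, 0.96 and 0.97, and C1qc with Mrc1 had r = 0.98, the highest of all pairs. All 10 pairs among the resident markers passed, with r from 0.80 to 0.98. With each diet's mean removed, the 36 pairs had r from 0.43 to 0.98, and 34 passed, so the pattern was also present within diets. With each animal left out in turn, between 30 (without control animal 11) and 34 of the 36 passed.

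With diet and the 3′ minus 5′ difference both regressed out, the 36 pairs had a median r of 0.78 and a range from 0.14, for Aif1 with Cd68, to 0.99. Without the 2 animals farthest from the median of the first gene of a pair, r lay between 0.39 and 0.98. Without noodle animal 10 and control animal 11, C1qb had r = 0.75 with Cd163 and 0.70 with Aif1.

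The order of animals was not that of the diets. Averaged over the 5 resident markers, the deviation from the overall mean was 0.230, 0.400, 0.171, -0.234 and 0.0728 in noodle animals 1, 4, 7, 10 and 13, against -0.145, -0.301, 0.0995, -0.526 and 0.232 in control animals 2, 5, 8, 11 and 14. Noodle animal 10 was below the overall mean for all 9 markers other than Trem2, as were control animals 2, 5 and 11. Control animal 14 was above it for all 9, as were noodle animals 4 and 7.

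The 9 pairs of Trem2 had r from -0.53 to -0.18 with a median of -0.34, and none passed the adjustment over the 45 pairs. By rank, 1 of the 9 passed, with Ctss (rho -0.75, adjusted permutation p = 0.0291). The second probe set of Trem2 had rho -0.50 with Ctss (unadjusted permutation p = 0.142). With each diet's mean removed, r lay between -0.33 and 0.02, and none passed. Trem2 with C1qb had r = -0.38 (permutation p = 0.288), rho -0.48, and r = -0.13 within diets (exact permutation p = 0.74). Without noodle animal 10 and control animal 11, the farthest from the median of C1qb, r was -0.48. Whether the correlations of Trem2 differ from those of the other markers was not tested.

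**Figure D4:**
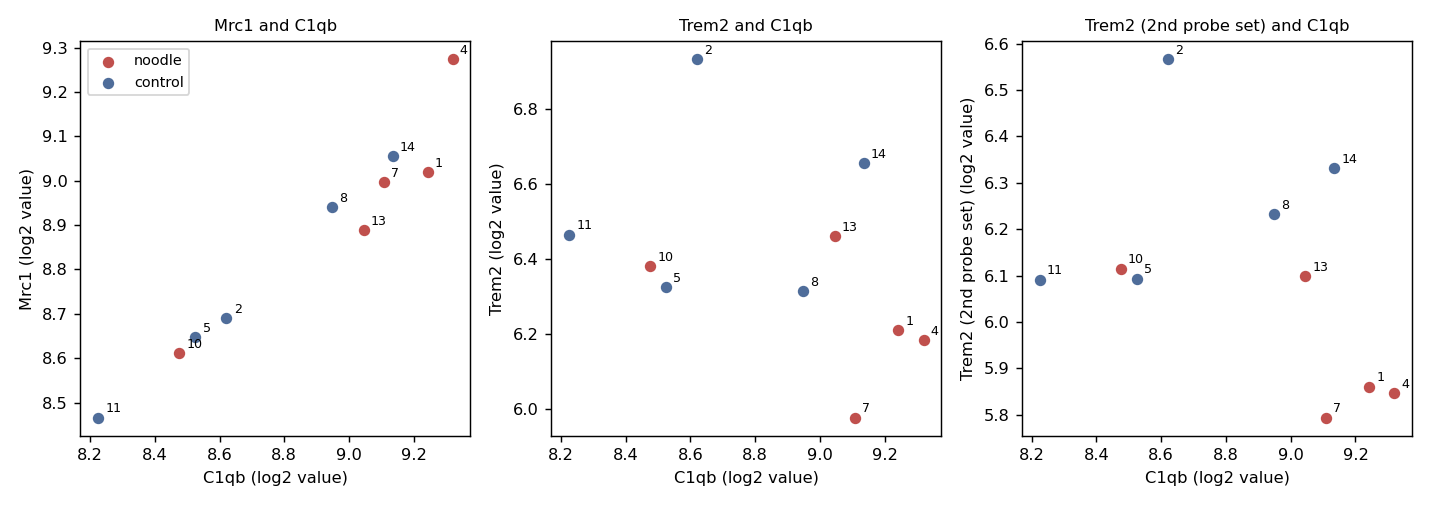
Level of Mrc1 and of both Trem2 probe sets (y axes, log2) against that of C1qb (x axis, log2), 1 numbered point per animal, coloured by diet. Mrc1 climbs with C1qb (r = 0.97), while Trem2 has r = -0.38, with control animal 2 highest and noodle animal 7 lowest in both of its panels.

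The genes whose values, with each diet's mean removed, followed the mean of the C1q genes most closely over the 10 animals were other genes of myeloid cells. They were Fcer1g, an adaptor of Fc receptors (r = 0.98), Itgam, the integrin CD11b (0.98), Alox5ap, needed for leukotriene synthesis (0.97), and Cybb, the catalytic subunit of the phagocyte oxidase (0.96). Folr2, a folate receptor of resident macrophages, had r = 0.96, and the lectin Clec10a had r = 0.94. Of 1622 other genes that were not flat, 60 (3.70%) had r over 0.8 with the C1q mean. Among the fixed lists, 4 of 10 further resident markers and 8 of 13 further general macrophage markers did, as did 3 of 11 monocyte markers, 2 of 7 other complement genes (Cd55 the highest), 1 of 5 mast cell markers (Fcer1a) and 1 of 7 fibroblast markers (Dcn). The count was 0 of 8 further lipid-associated markers, 0 of 7 adipocyte, 0 of 7 mesothelial, 0 of 6 dendritic cell, 0 of 6 inflammatory and 0 of 5 endothelial markers. The 8 lipid-associated markers were those not flat among 20 measured, so most of that list was not compared.

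The genes most like Trem2, by the same measure, were the thrombin receptor gene F2r (r = 0.95), the nuclear factor Dach1 (0.94), the transcription cofactor Vgll3 (0.88), Rgs5, known from pericytes (0.88), the prion protein gene Prnp (0.83) and Lrg1 (0.79). As measured, without removing each diet's mean, r was 0.96 for F2r, 0.93 for Vgll3, 0.87 for Prnp and 0.78 for Lrg1, but 0.65 for Rgs5 and 0.40 for Dach1. Control animal 2 had the highest Trem2, and without it the within-diet r was 0.91 for F2r, 0.89 for Dach1, 0.81 for Rgs5 and 0.64 for Prnp. Of the 1622 genes, 5 (0.308%) had r over 0.8 with Trem2. No gene of any list did, and the 8 further lipid-associated markers had r between -0.57 and 0.33 with Trem2, with Apoe, the lipoprotein ligand, at the top. Correlations in these 2 paragraphs are descriptions across genes measured on the same 10 arrays.

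**Figure D5:**
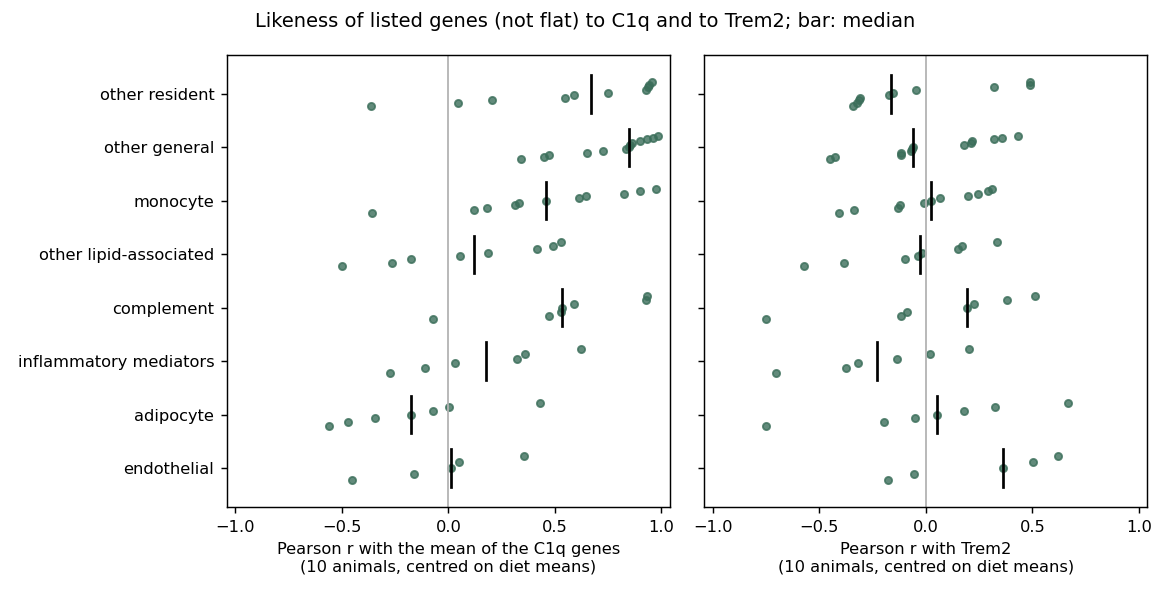
Pearson r of each gene of the marker lists, with each diet's mean removed, with the mean of the C1q genes and with Trem2 (x axis, -1 to 1), 1 point per gene that is not flat and a bar at each list's median. With C1q, 8 of 13 further general and 4 of 10 further resident markers are over 0.8, and no listed gene is with Trem2.

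No further gene of these macrophage states passed the adjusted threshold. Over 4 lists of further resident, lipid-associated, monocyte and general macrophage genes, 74 of 89 were measured, 42 were not flat, 29 of these were higher and 13 lower in the noodle group, and 0 passed the adjusted threshold by limma. Their median difference was 0.08, against -0.01 over all probe sets that were not flat, of which 44.6% were higher. These differences are without the RNA quality covariate. At an unadjusted p under 0.05 by limma there was 1 of the 42, where 8.13% of all probe sets that were not flat were. It was Cd36, a fatty acid transporter that adipocytes also express, at 0.04 ± 0.01 (SE).

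Among further resident markers 7 of 10 were higher, with Folr2 at 0.30 ± 0.16, Clec10a at 0.26 ± 0.16, the transglutaminase subunit gene F13a1 at 0.26 ± 0.16 and the transcription factor Maf at 0.15 ± 0.12 (SE). Among further lipid-associated markers 5 of 8 were higher, with the lipid droplet protein gene Plin2 at 0.10 ± 0.09, osteopontin (Spp1) at 0.34 ± 0.31 and the cholesterol exporter Abcg1 at -0.15 ± 0.15. Gpnmb and Cd9, often listed with Trem2 in such cells, were at -0.04 ± 0.12 and 0.07 ± 0.20. Among monocyte markers 8 of 11 were higher, with Itgam at 0.09 ± 0.06, lysozyme (Lyz2) at 0.16 ± 0.14, Plac8 at -0.23 ± 0.18 and the nuclear receptor Nr4a1 at -0.07 ± 0.06. Among further general markers 9 of 13 were higher, with the tetraspanin Cd53 at 0.19 ± 0.11, the oxidase subunits Cyba at 0.19 ± 0.13 and Cybb at 0.15 ± 0.11, and the surface glycoprotein Cd52 at -0.19 ± 0.12.

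Of the ligands and signalling partners of Csf1r and Trem2, 3 of 12 measured genes were not flat. Over all probe sets, a count not made by gene, 8.40% were not flat. Tyrobp, the kinase Syk and the growth factor Csf1 were among the flat ones, which does not mean that they were absent. Clusterin (Clu), a lipoprotein that Trem2 binds, was at 0.36 ± 0.15, Il34 at -0.06 ± 0.15 and Apoe at 0.01 ± 0.24 (SE). Of the other complement genes 4 of 7 were higher and 3 lower, with the lectin pathway protease Masp1 at -0.44 ± 0.12, the receptor C5ar1 at 0.20 ± 0.14, the C1 inhibitor Serping1 at 0.19 ± 0.22 and the decay factor Cd55 at -0.07 ± 0.08. Of the inflammatory mediators 3 of 6 were higher, with the chemokines Ccl2 at 0.11 ± 0.17, Ccl7 at 0.15 ± 0.14, Cxcl1 at -0.06 ± 0.21 and Cxcl10 at -0.26 ± 0.15. None of these genes passed the adjusted threshold by limma.

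Markers of other cell types are described by direction only, and no gene of these lists passed the adjusted threshold by limma. Of all probe sets that were not flat, 44.6% were higher in the noodle group. Genes of a list can vary together, so the counts are not independent evidence. The RNA quality covariate is not part of these differences. All 7 mesothelial markers had lower means in the noodle group (median difference -0.27), as had all 5 mast cell markers that were not flat (-0.16) and all 3 red blood cell markers that were not flat (-0.21). The log2 of the summed level of the mesothelial list was 9.22 to 9.96 in the noodle group and 9.18 to 10.63 in the control group, that of the mast cell list 10.33 to 10.72 against 10.35 to 10.88, and that of the red blood cell list 12.97 to 13.37 against 13.29 to 13.58. Their part in the Trem2 difference was not tested. Adipocyte markers were split, with 4 of 7 higher.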

How the data were processed

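The values the authors deposited, 1 for each array and probe set, run from 4.73 to 13.89 and were read as log2, since the sources used here do not state the base, background correction, summarisation or normalization the authors used. Per the labels' protocols, RNA was purified on a column and biotin-labelled cRNA was made from it. Of 31099 probe sets, 57 array controls were left out. Genes were named from the platform annotation (20826 probe sets with 1 symbol, 436 with several, 9780 with none), and the probe set with the highest mean represented a gene. Diets were compared with limma 3.58.1 in R 4.3.3 (lmFit, eBayes, two-sided, Benjamini-Hochberg over 31042 probe sets, threshold 0.05), single genes by exact permutation over 252 assignments, and pairs of genes by 100000 permutations. The limma step was tested on simulated data. Animals are the replicates. The labels do not give litters or cages, and 5 arrays per group limit the precision. Members and lists were chosen with earlier results of these data known. Besides all members, the text names up to 4 genes per list with the smallest p among those not flat, and the 6 genes most like C1q and Trem2. Gpnmb, Cd9, Tyrobp, Syk, Csf1, Fcer1a, Selenop and Lgals1 fall outside that rule and were named after their values were seen. Alternatives were array centring, quantile normalization, array weights, an intensity trend in eBayes and a filter on dim probe sets. Further ones were only the probe sets that were not flat, another choice of probe set, RNA quality as a covariate and each animal left out. Sequences are those of RefSeq (GRCr8).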

Additional observations from a re-analysis of the deposited data

Results flagged for a closer look

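In 4 of 94 groups of 5 animals examined (47 genes and array measures, each in both diets), 1 animal lay far from the other 4 by Dixon's criterion, which chance reaches in about 1 of 20 groups. None of the 4 concerned a member. Maf was at 9.48 in control animal 14, with the other controls between 9.83 and 9.88. Cyba was at 7.39 in control animal 5, with the other controls between 7.87 and 8.04. C5ar1 was at 7.48 in noodle animal 10, with the other noodle animals between 7.79 and 7.91. Dach1, among the genes most like Trem2, was at 6.97 in control animal 2, the animal with the highest Trem2, with the other controls between 6.81 and 6.85.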

How the results depend on the processing

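The differences of C1qa, C1qb, Aif1, Ctss, Cd163, Mrc1 and Trem2 kept their direction, and none reached the adjusted threshold, under every alternative run for them. With the 3′ minus 5′ difference of the array as a covariate, the differences of C1qc, Cd68 and Csf1r turned to -0.0108, -0.118 and -0.0179. With each animal left out, the number of probe sets past the threshold was 0 to 1, with 1 without control animal 14, and the number of members higher in the noodle group stayed 9. On leaving out animals, the correlation of Trem2 with C1qb ranged from -0.518 (without control animal 14) to -0.302 (without noodle animal 4) and it was -0.129 with each diet's mean removed and -0.401 with the second probe set of Trem2. The second probe set, the leave-out values of the genes most like Trem2, the leave-out counts of correlated pairs and the removal of RNA quality from the pairs were chosen after seeing the data. Choosing probe sets by the highest SD gave the same member probe sets. With only the probe sets that were not flat in the limma fit, the lowest adjusted p was 0.270. Among the member genes it was 0.651. No paired analysis was possible because no animal number occurs in both groups, and no label ties an animal to its partner in the paired feeding. Whether Trem2, whose values lie close to the array medians, is above background is not given in the sources used here, and the flatness of most probe sets means that sizes cannot be compared between probe sets.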
